A study of Mus musculus with 39 samples.

Results

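Transcripts of 46 proliferation genes, 18 for DNA replication and 28 for mitosis, were measured by RNA sequencing in the parathyroid of the mouse, the source of parathyroid hormone. The genes were picked by name as established parts of the cell division machinery, with earlier results of these data already known. Each was found in the count table by its Entrez ID, so that they make up 46 of 27179 gene IDs, and all 46 passed the low-count filter. Control mice carried floxed Bmal1 on both alleles and no Cre (Bmal1 flox/flox, called WT, 21 libraries), and knockout littermates carried in addition Cre under a human PTH promoter (PTHcre;Bmal1 flox/flox, called KO, 18 libraries). Both genotypes therefore share the loxP sites around exon 8 of Bmal1, whose protein switches on genes of the daily clock, and only the KO mice carry Cre. By this design, exon 8 is removed where the PTH promoter is active, and other cells taken with the gland keep it. Animals were male and 11 weeks old, and each library came from the pooled glands of 2 mice, so the p-values below measure the spread between such pools. Glands were collected at 6 times counted from lights on (zeitgeber time, ZT): from ZT0 in steps of 4 h to ZT20 there were 3, 4, 2, 3, 5 and 4 WT libraries and 3, 3, 3, 2, 3 and 4 KO libraries. The titles of 3 libraries (WT replicates 4 and 5, KO replicate 1) place them at ZT16 while a second label of theirs gives ZT20.

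A cell that divides first copies its DNA and then separates the copies. Origins are licensed by Cdc6, Cdt1 and the Mcm2 to Mcm7 helicase, deoxynucleotides are made by ribonucleotide reductase (Rrm1, Rrm2), thymidylate synthase (Tyms) and thymidine kinase (Tk1), the sliding clamp Pcna holds the polymerase, and cyclin E (Ccne1, Ccne2) with E2F factors opens this phase. Mitosis is driven by Cdk1 with cyclins A2, B1 and B2 and by the Plk1 and Aurora kinases, checked at kinetochores by Bub1 and Bub1b, and finished by motors and scaffolds of the spindle midzone and cleavage furrow such as Kif23, Racgap1, Ect2, Prc1 and Anln. Adult parathyroid cells divide rarely, whereas immature T cells of the thymus, an organ that lies close to the parathyroid glands, divide often. T cells are marked by Cd3e, a part of the T-cell receptor complex, and thymocytes by Rag1, which cuts DNA to assemble that receptor.

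The gene classes differed in the letters found in their promoters, and 6 examples are shown, chosen to hold the E2F-like, CHR and CCAAT letters. RefSeq promoters (build GRCm38.p6, 250 bases before to 50 after the start of transcription) were on hand for 38 of the 46 genes, 15 replication and 23 mitosis genes. The letters searched, on both strands, were TTTCCCGC, TTTGGCGC, TTTCGCGC and TTTGCCGC as E2F-like sites, TTTGAA and TTTAAA as the cell cycle homology region (CHR), CCAAT as the CCAAT box and CACGTG as the E-box. An E2F-like site occurred in 7 of 15 replication promoters and 1 of 23 mitosis promoters, against 2.6% of 27025 genes with a promoter. A CHR together with a CCAAT box occurred in 18 of 23 mitosis promoters (78.3%) and 4 of 15 replication promoters (26.7%), against 13.4% of all genes. The E-box, the letters that Bmal1 with its partner Clock is known to bind, occurred in 1 of 15 and 1 of 23, against 8.09% of all genes. A match describes these letters only and is not evidence of binding. The 130 bases before the start are printed 5′ to 3′ on the gene's own strand, with matched letters in capitals: E2F-like sites of Mcm6 (2 of them overlapping in TTTGGCGCGAAA), CHR letters of Ccnb1, Plk1, Cdc20 and Kif11, and CCAAT boxes (ATTGG on the other strand) of all 6, Pcna included.
Mcm6 (chr1:128359706-128359835, minus strand): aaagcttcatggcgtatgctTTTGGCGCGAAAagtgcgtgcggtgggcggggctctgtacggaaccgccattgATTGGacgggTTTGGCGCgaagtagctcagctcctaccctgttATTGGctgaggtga
Pcna (chr2:132253181-132253310, minus strand): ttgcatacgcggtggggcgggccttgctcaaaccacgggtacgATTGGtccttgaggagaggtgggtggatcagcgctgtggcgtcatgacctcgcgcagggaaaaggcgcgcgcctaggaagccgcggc
Ccnb1 (chr13:100786487-100786616, minus strand): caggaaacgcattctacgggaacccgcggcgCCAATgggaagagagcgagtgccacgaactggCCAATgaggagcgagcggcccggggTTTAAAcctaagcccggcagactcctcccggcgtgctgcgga
Plk1 (chr7:122159305-122159434, plus strand): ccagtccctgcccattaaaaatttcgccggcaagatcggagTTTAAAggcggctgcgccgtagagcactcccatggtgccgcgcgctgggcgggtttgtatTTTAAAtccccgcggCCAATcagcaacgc
Cdc20 (chr4:118437344-118437473, minus strand): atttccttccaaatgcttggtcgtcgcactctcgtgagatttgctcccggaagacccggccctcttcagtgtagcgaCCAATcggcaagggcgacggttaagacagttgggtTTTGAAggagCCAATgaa
Kif11 (chr19:37376252-37376381, plus strand): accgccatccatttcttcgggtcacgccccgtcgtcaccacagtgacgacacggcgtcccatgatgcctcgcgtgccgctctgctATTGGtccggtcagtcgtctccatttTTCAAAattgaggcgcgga
The deposited libraries held 38111766 to 68938704 counts (median 55836787). The Bmal1 transcript (gene symbol Arntl) was counted over the whole gene rather than over the deleted exon: its mean was 40.8, 28.9, 12.2, 3.05, 21.2 and 24.2 CPM (counts scaled to a common library size of 1e6) in WT from ZT0 to ZT20, and 25.6, 19.6, 12.0, 10.4, 10.7 and 19.4 in KO. Pth, the hormone gene, ran from 61680 to 227100 CPM and Gcm2, the master factor of the parathyroid, from 275 to 509 CPM, so the labelled tissue was present in every library, and markers of the adjoining thyroid follicles summed to between 2.18 and 61580 CPM. Libraries stood apart in T-cell content: Cd3e ran from 0.036 to 29.0 CPM, and Rag1 had no count in 15 libraries (11 WT, 4 KO) and reached 591 CPM in another. A T-cell score, the mean log2 CPM of 15 T-cell and thymocyte markers, ran from -2.63 to 6.24. It was highest in WT ZT16 replicates 4 (6.24) and 3 (5.56), KO ZT20 replicate 2 (4.99), KO ZT0 replicate 3 (4.44) and WT ZT20 replicate 2 (4.14). Its mean was -0.175 ± 2.88 in WT (SD, n = 21) and 0.83 ± 2.16 in KO (SD, n = 18), a difference of 1.01 (two-sided permutation test, p = 0.231). Markers of thymic epithelium moved with the score in a fit that also held genotype and time (Foxn1, which directs the growth of that epithelium, slope 0.50, adjusted p = 0.0013), and the parathyroid genes Gcm2 and Casr moved against it (slopes -0.058 and -0.045, adjusted p = 4.64e-05 and 0.0065). Results that rest on the T-cell-rich libraries are therefore given with and without the 12 libraries of highest score and with the score in the fit.

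Levels differed widely between the genes when set on a per-length scale (median CPM per kilobase of exon). Pcna was highest at 26.4 CPM per kilobase, followed by the helicase subunit Mcm7 at 9.66 and the reductase subunit Rrm1 at 9.48. The lowest were Mybl2, a transcription factor of late cell cycle genes, at 0.26, the licensing factor Cdc6 at 0.28 and the checkpoint kinase Bub1 at 0.337. The smallest count of any of the 46 genes in a library was 16, for Birc5 in WT ZT16 replicate 1 and KO ZT16 replicate 3, and for Mki67 it was 427, so all 46 were counted in all 39 libraries. The 46 genes lie on 17 chromosomes. Spans of 13 of them, Ccne2, Mcm7, Tk1, Gins2, E2f1, Ccna2, Aurka, Cdc20, Kif20a, Foxm1, Nusap1, Prc1 and Anln, overlap another protein-coding gene in the reference table, and since the strand setting of the counting is not given in the sources used here, their counts may hold reads of that neighbour.

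Among the replication genes, the clamp Pcna (chr2:132249286-132253180) and the helicase subunit Mcm2 (chr6:88883474-88898780) were followed library by library, in replicate order. In WT, Pcna stood at 31.3, 33.3 and 35.4 CPM at ZT0, then 40.0, 36.0, 33.8 and 35.1 at ZT4, then 51.5 and 35.4 at ZT8, then 33.7, 40.6 and 42.0 at ZT12, then 43.4, 39.2, 55.8, 83.7 and 38.8 at ZT16, then 40.7, 49.4, 49.9 and 42.9 at ZT20. In KO, Pcna stood at 37.8, 39.2 and 43.8 CPM at ZT0, then 46.2, 40.6 and 38.0 at ZT4, then 44.0, 39.0 and 41.9 at ZT8, then 36.9 and 46.0 at ZT12, then 52.3, 35.6 and 35.6 at ZT16, then 36.1, 44.8, 40.7 and 37.8 at ZT20. Every KO library lay above every WT library at ZT0, and at the other 5 times the genotypes overlapped. Over all times the means were 42.5 ± 11.5 CPM in WT (SD, n = 21) and 40.9 ± 4.53 in KO (SD, n = 18). Mcm2 ranged from 12.4 to 38.8 CPM in WT and from 15.6 to 27.3 in KO, with means of 19.1 ± 5.58 (SD, n = 21) and 20.4 ± 3.3 (SD, n = 18). WT libraries of Mcm2 at ZT16 held 14.5, 18.6, 26.2, 38.8 and 17.5 CPM, and KO libraries held 27.3, 15.7 and 20.8, inside the WT range.

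Among the mitosis genes, Mki67 (chr7:135689784-135716450), whose Ki-67 protein coats mitotic chromosomes and is the common stain for dividing cells, varied far more. In WT it stood at 23.6, 13.3 and 16.2 CPM at ZT0, then 21.7, 11.4, 9.68 and 13.4 at ZT4, then 70.9 and 17.7 at ZT8, then 11.6, 19.6 and 14.8 at ZT12, then 10.4, 19.0, 99.4, 158 and 25.1 at ZT16, then 18.2, 78.5, 16.6 and 25.6 at ZT20. In KO it stood at 12.3, 16.0 and 39.9 CPM at ZT0, then 9.5, 29.1 and 10.5 at ZT4, then 14.2, 17.4 and 14.1 at ZT8, then 24.0 and 32.0 at ZT12, then 32.1, 12.5 and 14.9 at ZT16, then 24.2, 69.0, 13.4 and 17.2 at ZT20. One or a few libraries stood high within most groups, and the genotypes overlapped at every time except ZT8 and ZT12: both WT libraries were above the 3 KO libraries at ZT8, and both KO libraries were above the 3 WT libraries at ZT12. Means over all times were 33.1 ± 37.6 CPM in WT (SD, n = 21) and 22.4 ± 14.5 in KO (SD, n = 18). Top2a (chr11:98992947-99024199), the topoisomerase that untangles sister chromatids, ran from 7.79 to 161 CPM in WT and from 8.03 to 49.8 in KO. At ZT16 it held 8.2, 13.3, 79.5, 161 and 18.4 CPM in WT and 33.1, 11.1 and 9.9 in KO, so that the 2 highest WT libraries, replicates 3 and 4, set the WT mean.

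**Figure D1:**
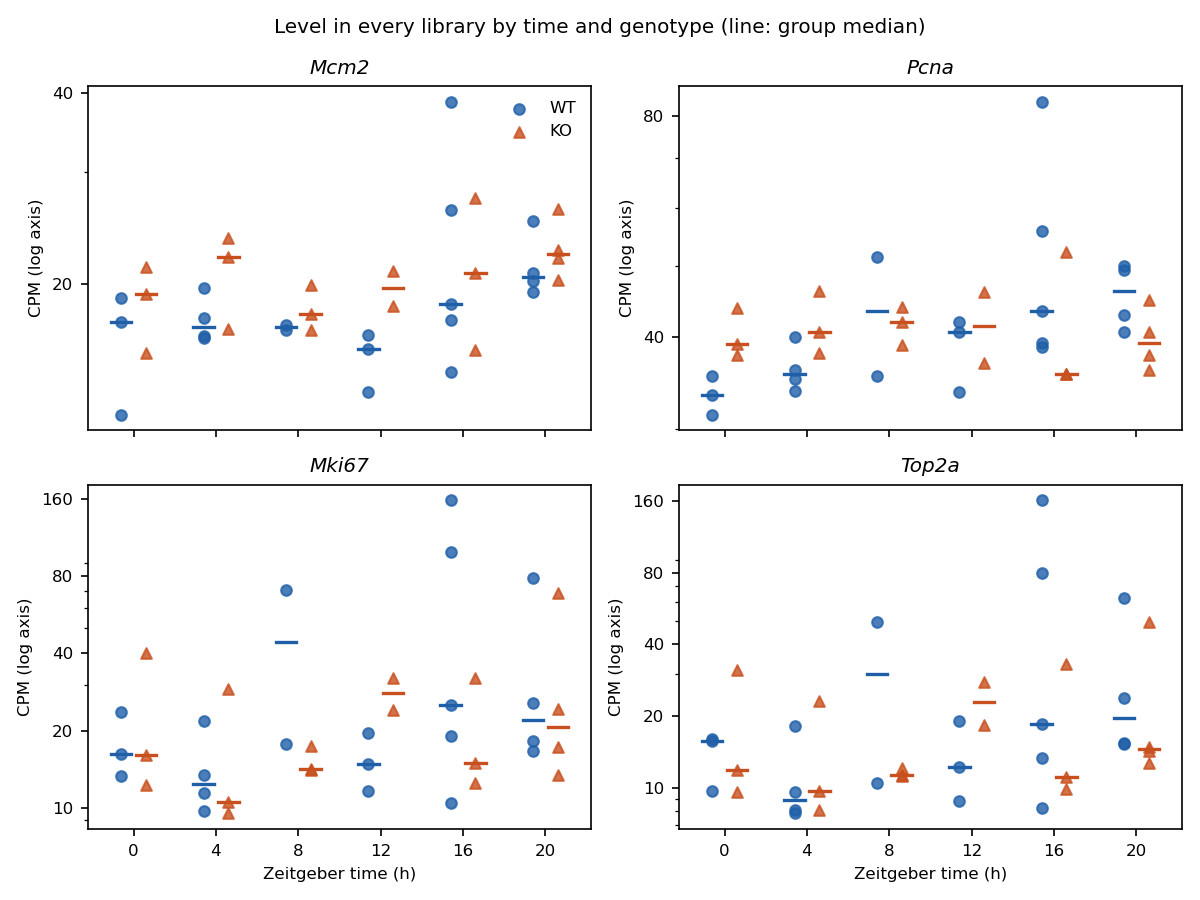
Level of 2 replication genes (Mcm2, Pcna) and 2 mitosis genes (Mki67, Top2a) in every library against zeitgeber time in hours, in CPM on a log axis, with WT as blue circles, KO as orange triangles and a short line at each group's median. Single libraries stand far above their group in the mitosis genes, up to 158 CPM for Mki67 and 161 CPM for Top2a in WT at ZT16, while Pcna stays between 31.3 and 83.7 CPM.

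One library was the highest for nearly all 46 genes. WT ZT16 replicate 4 was the highest of 39 libraries for 45 genes, and WT ZT20 replicate 2 was the highest for Gins2, a subunit of the replicative helicase complex. The ratio of the highest to the lowest library was largest for Birc5 (survivin, of the chromosomal passenger complex) at 36.1, and was 2.05 for Rrm1, the least variable. In the 12 libraries of highest T-cell score the median level of the mitosis genes was 1.36 to 2.85 times that in the other 27 (28 of 28 genes above 1, median 2.12). For the replication genes this ratio was 0.992 to 2.24 (17 of 18 genes above 1, median 1.39), with Gins2 the gene below 1. The ratio was not computed for all genes, so these counts have no background beside them. Within the 15 libraries without a Rag1 count the genes were still present: Mki67 ranged from 9.68 to 23.6 CPM there (median 16.0), Top2a from 7.79 to 19.0 (median 11.1) and Pcna from 31.3 to 49.9 (median 38.0). In bulk tissue, fewer cells of a type and less RNA per cell cannot be told apart, so none of these levels counts dividing cells.

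**Figure D2:**
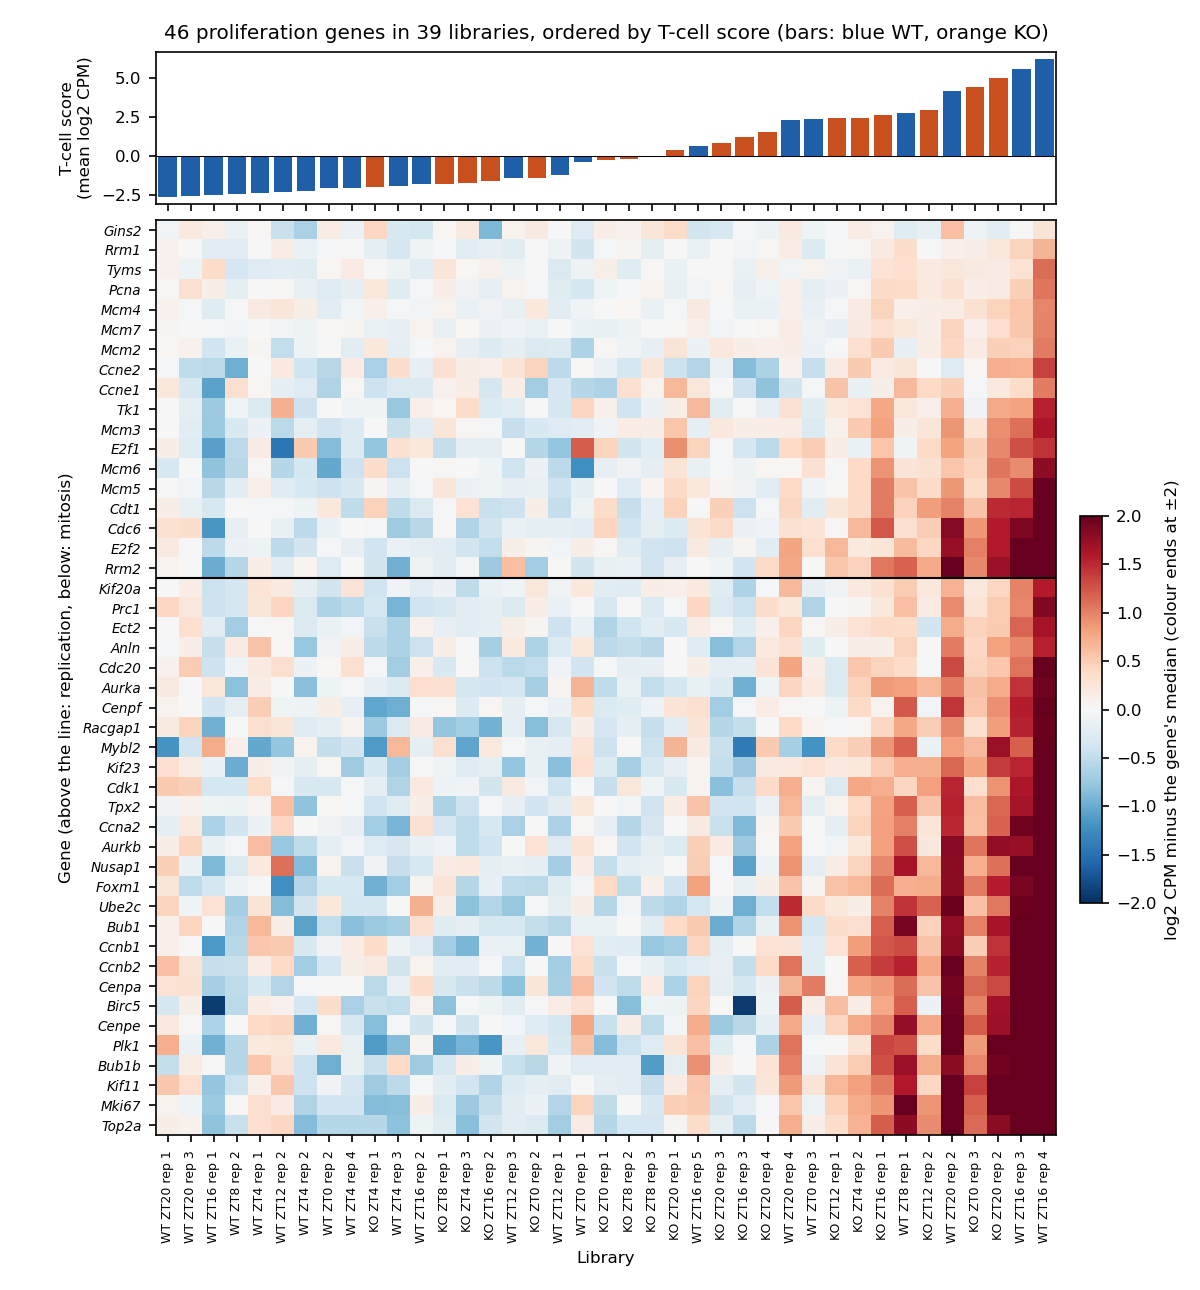
Each of 46 genes (rows, ordered by slope on the T-cell score within each class) in 39 libraries (columns, ordered by T-cell score), coloured by log2 CPM minus the gene's own median over the libraries, with the T-cell score of each library as bars above (blue WT, orange KO). WT ZT16 replicate 4, at the far right, is the highest for 45 of 46 genes, while WT ZT0 replicate 3 (score 2.4) has 5 of 18 replication and 13 of 28 mitosis genes above their own medians.

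Genotype was tested over all 39 libraries with time as a factor, which asks whether loss of Bmal1 in the parathyroid changed the proliferation genes. None of the 46 genes passed the threshold (adjusted p under 0.05, edgeR), where 7.69% of the 18661 genes tested did. At an unadjusted p under 0.05 there was 1 gene (21.1% of all genes), Racgap1, a regulator of cytokinesis, and DESeq2 called 0. Estimates were below 0 in KO for 27 of 28 mitosis genes (median log2 fold change -0.32) and 9 of 18 replication genes (median -0.007), beside a median of 0.00098 over all genes tested. The largest were Plk1, a mitotic kinase, at -0.54 ± 0.313 (SE, adjusted p = 0.327), Ube2c, which feeds the anaphase-promoting complex, at -0.52 ± 0.298 (SE, adjusted p = 0.32), Racgap1 at -0.48 ± 0.191 (SE, adjusted p = 0.125) and Birc5 at -0.45 ± 0.32 (SE, adjusted p = 0.444). Racgap1 (chr15:99620496-99651656) averaged 6.85 ± 3.97 CPM in WT (SD, n = 21) and 4.66 ± 1.78 in KO (SD, n = 18), with overlapping ranges. Leaving out any single library left the count at 0.

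Taking T-cell content into account changed this count. With the T-cell score as a covariate, 26 of 46 genes passed, all lower in KO, where 9.05% of all genes tested passed in either direction. They were 23 mitosis genes and the replication genes E2f2, Rrm2 and Mcm7. By smallest p they were led by Racgap1 at -0.71 ± 0.106 (log2 fold change ± SE, edgeR adjusted p = 1.7e-05), Plk1 at -0.85, Cenpa, the centromeric histone, at -0.65, the spindle assembly factor Tpx2 at -0.56 and E2f2, a transcription factor of S phase entry, at -0.52. Kif11, the bipolar spindle motor, followed at -0.67, the kinetochore motor Cenpe at -0.70, Mki67 at -0.63 (adjusted p = 0.00463), the kinetochore protein Cenpf at -0.52 and Ube2c at -0.73. The relation to the score was not a straight line, and with the square of the score added, an alternative chosen after seeing the data, 5 genes passed, where 5.88% of all genes did. Those 5 were Racgap1 at -0.56 ± 0.107 (SE, adjusted p = 8.43e-04), Plk1 at -0.63, Cenpa at -0.46, Tpx2 at -0.38 and Cenpe at -0.49. Among the 27 libraries outside the 12 of highest score, 3 genes passed, where 2.42% of all genes did: Racgap1 was lower at -0.59 ± 0.137 (SE, adjusted p = 0.0173), and the helicase subunits Mcm6 and Mcm3 were higher, at 0.45 ± 0.0979 (SE, adjusted p = 0.0106) and 0.32 ± 0.0775 (SE, adjusted p = 0.0221). No KO library of ZT12 remained in that fit. It had no score term, and scores there still ran from -2.63 (WT ZT20 replicate 1) to 1.56 (KO ZT20 replicate 4). Whether the genotypes differed in score among these 27 libraries was not tested. Racgap1 was the gene called in all 3 of these fits, and it was not called in the fit of all 39 libraries with time alone.

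**Figure D3:**
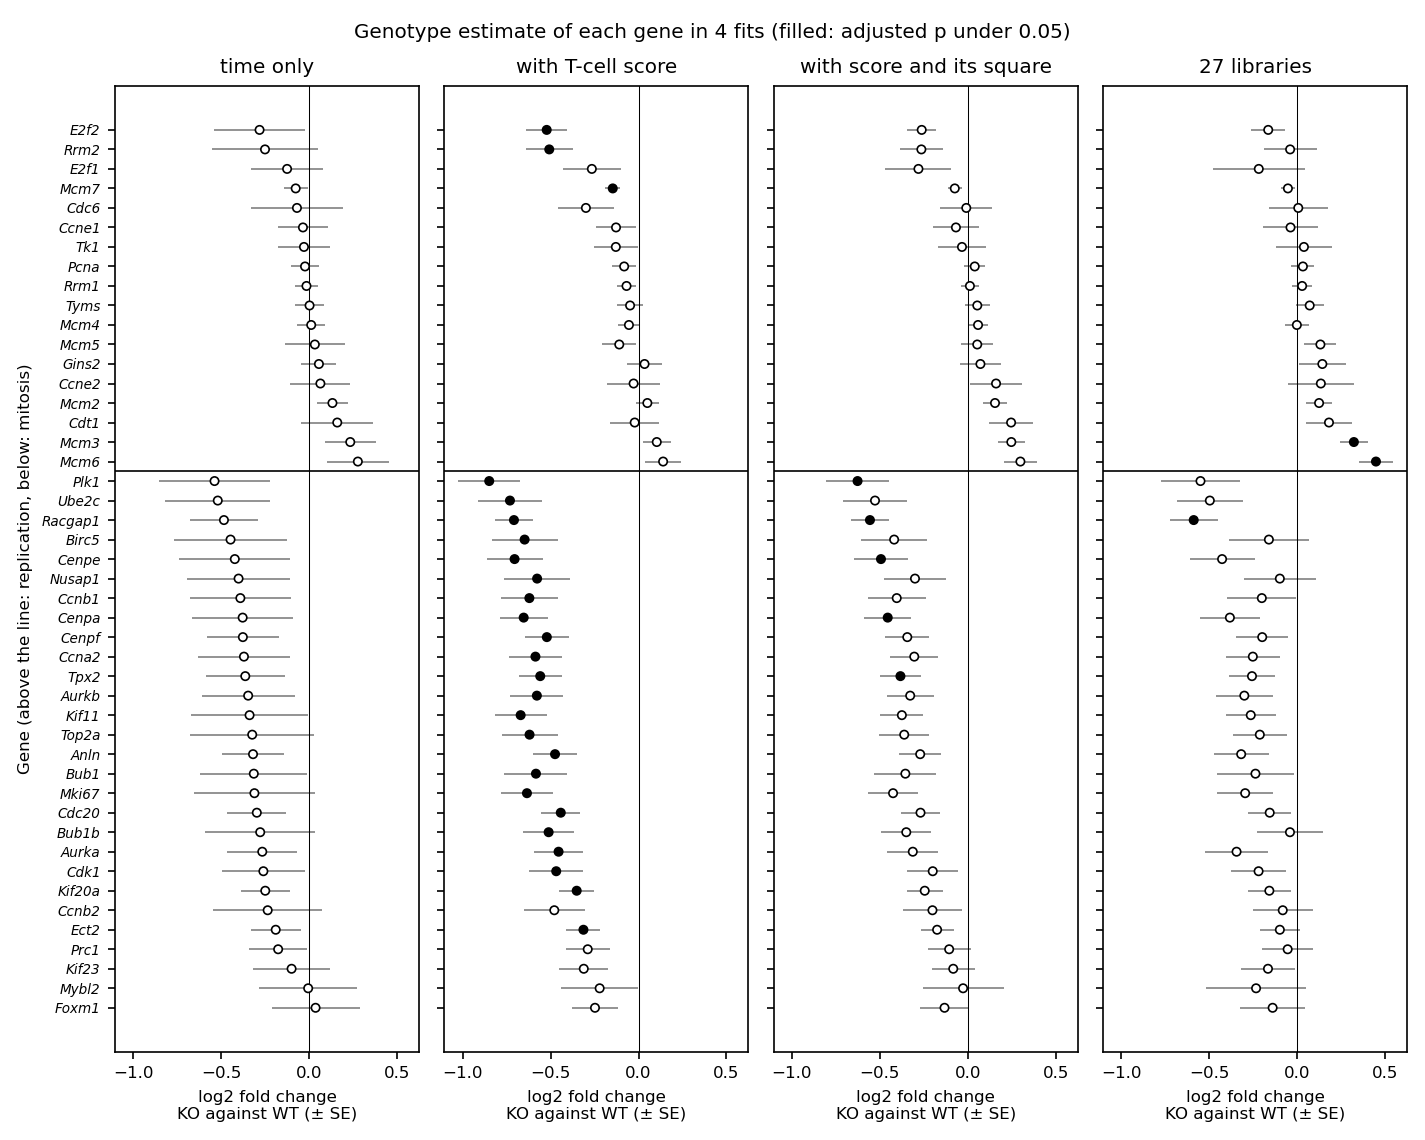
Log2 fold change of KO against WT with its SE for each of 46 genes (rows, replication above and mitosis below the line) in 4 edgeR fits: time only, with the T-cell score, with the score and its square, and on the 27 libraries of lower score; filled points have an adjusted p under 0.05. The number of filled points is 0, 26, 5 and 3 from left to right, and the median of the mitosis genes is below that of the replication genes in each panel.

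Within single times no gene passed either. The counts were 0 of 46 at each of the 6 times in edgeR and in DESeq2, where from ZT0 to ZT20 0.0643%, 0.0750%, 0.0589%, 0.161%, 0.182% and 0.890% of all genes passed. At an unadjusted p under 0.05 the edgeR counts were 0, 1, 0, 0, 23 and 0, where 5.67%, 4.04%, 7.76%, 8.42%, 7.81% and 18.4% of all genes were. The gene at ZT4 was Gins2, higher in KO. All 23 genes at ZT16 had estimates below 0 and 22 were mitosis genes, where 4.49% of all genes tested had an unadjusted p under 0.05 in that direction. At ZT16 all 46 estimates were below 0, where 10385 of the 18661 genes tested were. Medians were -1.26 for mitosis and -0.37 for replication genes. The largest were Kif11 at -1.80 ± 0.744 (SE, edgeR adjusted p = 0.56), Birc5 at -1.79 ± 0.731, Mki67 at -1.65 ± 0.751 and Ube2c at -1.64 ± 0.627. Kif11 held 2.18, 3.64, 21.6, 42.5 and 5.38 CPM in the 5 WT libraries and 7.64, 2.45 and 2.88 in the 3 KO libraries of that time. The T-cell scores of these libraries were -2.47, -1.79, 5.56, 6.24 and 0.666 in WT and 2.62, -1.61 and 1.23 in KO, so WT replicates 3 and 4 were the high libraries on both measures. The unadjusted count of 23 became 0 without WT replicate 4 (median for mitosis genes -0.57) or without KO replicate 2, 2 without KO replicate 3, 12 without WT replicate 3, 35 without WT replicate 1 and 36 without KO replicate 1. With the 3 libraries of doubtful time placed at ZT20 it was 3, and with the T-cell score in the fit it was 17 (median for mitosis genes -0.65). The share of all genes under this cut is not given for these refits. Their counts show only how far the 23 depended on the libraries and terms in the fit.

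At ZT8 and ZT12 the estimates were higher for the genotype that held the library of highest T-cell score, and at ZT20 they were not. At ZT8, 28 of 28 mitosis genes had estimates below 0, where 9135 of the 18661 genes tested did. Their median was -0.88, and the largest was Mki67 at -1.54 ± 0.869 (SE, edgeR adjusted p = 0.714). WT replicate 1 had a T-cell score of 2.74 and WT replicate 2 of -2.42, against -1.76, -0.176 and -0.0558 in the 3 KO libraries. At ZT12, 43 of 46 estimates were above 0, where 9136 of the 18661 genes tested were. Medians were 0.36 for mitosis and 0.40 for replication genes, and the largest was Ube2c at 1.35 ± 0.732 (SE, edgeR adjusted p = 0.63). The scores there were 2.41 and 2.95 in KO and -1.2, -2.28 and -1.43 in WT, without overlap. With the score in the fit, the median for mitosis genes was -0.69 at ZT12 and -0.48 at ZT8, and 38 of 46 estimates at ZT12 were below 0. At ZT20 the scores were -2.63, 4.14, -2.55 and 2.31 in WT and 0.37, 4.99, 0.86 and 1.56 in KO. There 36 of 46 estimates were below 0 (median -0.34 for mitosis genes), where 8555 of the 18661 genes tested were. The 46 genes moved together across libraries, so these counts of signs are not separate observations. With the score in the fit Cenpa passed at that time (-1.21 ± 0.287, SE, adjusted p = 0.0315), and with its square added no gene did. What part T-cell content has in the differences at single times was not tested further. At ZT0 and ZT4 the medians for mitosis genes were 0.11 and 0.15. The largest estimates were Bub1b, the spindle checkpoint protein BubR1, at 0.61 ± 0.746 (SE, adjusted p = 0.995) at ZT0, and cyclin B2 at 0.67 ± 0.686 (SE, adjusted p = 1) at ZT4.

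A 24 h cosine was fitted within each genotype to ask whether the proliferation genes cycled. In WT, 0 of 46 genes passed in edgeR, where 0.248% of the genes tested did. At an unadjusted p under 0.05 in edgeR there were 26, where 14.9% of all genes were. DESeq2 called 0, with 33 at an unadjusted p under 0.05. The share of all genes under that cut in DESeq2 is not given, so the 33 has no background here. The smallest adjusted p was 0.232, for Cdk1 (amplitude 0.55 ± 0.218 on the log2 scale, SE, peak at ZT 17.8) and for Ect2, which sets the cleavage furrow (amplitude 0.41 ± 0.142, SE). The largest WT amplitudes were those of Bub1 at 0.72 ± 0.291 (SE), Ube2c at 0.67 ± 0.302, Cenpa at 0.66 ± 0.306 and Kif11 at 0.65 ± 0.31. Peaks of the 46 fitted curves fell between ZT 11.4 and 21.4. These peaks and amplitudes take WT ZT16 replicates 4 and 5 at their title time, while their second label gives ZT20. The unadjusted count of 26 was 2 without WT ZT16 replicate 4, 9 without WT ZT16 replicate 3 or WT ZT4 replicate 3, 14 without WT ZT4 replicate 2 or 4, and 15 without WT ZT8 replicate 2. It was 0 with the T-cell score in the fit and 2 without the 12 libraries of highest score. The share of all genes under this cut is not given for these refits. In KO, 0 of 46 passed in edgeR and in DESeq2, where 0.0779% of genes did in edgeR, and 0 had an unadjusted p under 0.05, where 8.27% did.

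The test of the difference in rhythm between genotypes passed for 0 of 46 genes, where 0.0161% of all genes passed, with 1 gene at an unadjusted p under 0.05 (3.69% of all genes) and 0 called by DESeq2. Fitted amplitudes were smaller in KO for 44 of 46 genes (medians 0.434 in WT and 0.181 in KO), where 60% of all genes tested had a smaller amplitude in KO; the exceptions were Ccne1 and Gins2. For Mki67 the amplitudes were 0.54 ± 0.322 in WT and 0.32 ± 0.245 in KO (SE), which differ by less than their errors. For Pcna they were 0.23 ± 0.084 and 0.034 ± 0.0523 (SE), and the difference in rhythm had an adjusted p of 1.

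Moving with T-cell content was the most general property of the genes. In a fit with genotype and time, the slope on the T-cell score passed above 0 for 45 of 46 genes, where 19.6% of all genes passed in either direction and 12.4% above 0; DESeq2 also called 45. The median slope was 0.26 per unit of score for the 28 mitosis genes (28 called) and 0.11 for the 18 replication genes (17 called), beside -0.0027 over all genes tested. The steepest mitosis genes were Top2a at 0.34 ± 0.0304 (SE, adjusted p = 8.06e-11), Mki67 at 0.34 ± 0.0283, Kif11 at 0.33 ± 0.028 and Bub1b at 0.32 ± 0.0283. The flattest were Kif20a at 0.13, Prc1 at 0.13, Ect2 at 0.13 and Anln at 0.15. These act at the spindle midzone or cleavage furrow, but so do Racgap1 and Kif23, both at 0.20 and steeper than the kinase Aurka at 0.18. Spans of Kif20a, Prc1 and Anln are among those that overlap another protein-coding gene. The steepest replication genes were Rrm2 at 0.31 ± 0.0265 (SE, adjusted p = 8.92e-12), E2f2 at 0.27 ± 0.0223, Cdc6 at 0.25 ± 0.031 and Cdt1 at 0.19 ± 0.0275. The flattest were Tyms at 0.055, Pcna at 0.059, Rrm1 at 0.053 and Gins2 at 0.021 ± 0.0209 (SE, adjusted p = 0.527), the gene that did not pass. The markers in the score itself had slopes of 0.48 (Lck) to 1.67 (Rag1), steeper than any of the 46. Leaving out single libraries left 43 to 45 genes called.

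That relation was not called without the T-cell-rich libraries. Leaving them out by score cut its range from -2.63 to 6.24 down to -2.63 to 1.56. The SE of the Mki67 slope went from 0.0283 to 0.071, so this fit cannot tell a missing relation from an imprecise one. Among the 27 libraries outside the 12 of highest score, 0 of 46 slopes passed in edgeR and 3 had an unadjusted p under 0.05, with a median slope of 0.035. Mki67 had a slope of 0.14 (adjusted p = 0.518) and Top2a of 0.062 (adjusted p = 0.776) there, and Pcna had -0.07 (adjusted p = 0.416). With the square of the score added, an alternative chosen after seeing the data, 33 genes passed. The share of all genes passing is not given for either of these fits, so their counts have no background here.

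**Figure D4:**
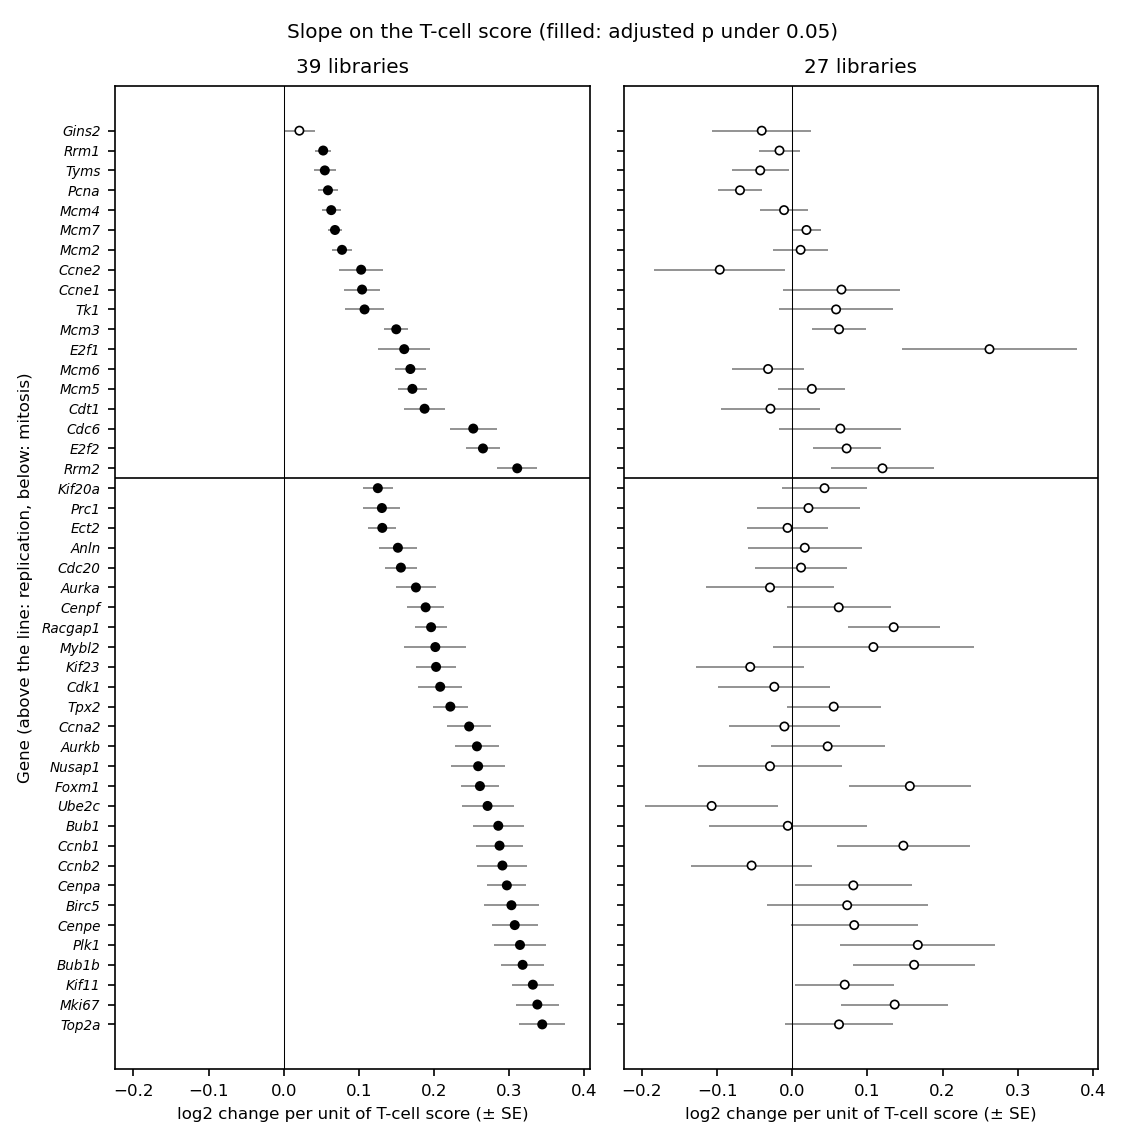
Slope of each of 46 genes on the T-cell score, as log2 change per unit of score with its SE, in a fit with genotype and time over all 39 libraries (left) and over the 27 libraries of lower score (right); filled points have an adjusted p under 0.05. On the left 45 of 46 points are filled and lie between 0.053 and 0.34, and on the right none is filled and the errors are wider.

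Cd3e and Rag1 were also taken singly across libraries. Both are among the 15 markers of the T-cell score, so their correlations are not separate from the slopes on it. By the largest gap between neighbouring libraries (0.101 and 0.107 of the range), log2 CPM of Cd3e and of Rag1 formed no separate clusters. That rule cannot see libraries tied at 1 value, and 15 libraries (11 WT, 4 KO) without a Rag1 count lay at its floor of -4.78. Correlations were computed for 18661 genes against each, with two-sided permutation tests (100000 resamples, smallest possible p = 1e-05) and adjustment over all genes. With Cd3e, 45 of 46 genes passed, all with r above 0 (median r = 0.669), where 13.3% of all genes passed above 0. For Mki67, Pearson's r was 0.804 (permutation p = 1e-05, adjusted p = 1.98e-04) and Spearman's rho was 0.701 (permutation p = 1e-05, adjusted p = 3.12e-04). Its r was 0.75 without the 2 libraries farthest from the median of Cd3e (WT ZT16 replicate 4 and KO ZT20 replicate 2), 0.873 in WT and 0.859 in KO. For Pcna, r was 0.488 (permutation p = 0.00097, adjusted p = 0.00797) and rho was 0.326 (permutation p = 0.045, adjusted p = 0.146). Without those 2 libraries r was 0.353 (adjusted p = 0.164), so Pcna did not pass over that narrower range of Cd3e. Within genotypes r for Pcna was 0.663 in WT (adjusted p = 0.0124) and 0.155 in KO (adjusted p = 0.843). For Gins2, r was 0.0233 (permutation p = 0.89, adjusted p = 0.939) and rho was -0.066.

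With Rag1, 44 of 46 genes passed, all above 0 (median r = 0.655), where 10.5% of all genes did. Since 15 libraries had no Rag1 count, these values also hold the contrast between libraries without and with Rag1, not only a graded relation. The highest was Foxm1, the transcription factor that drives late cell cycle genes, with r of 0.815 (permutation p = 1e-05, adjusted p = 2.76e-04), rho of 0.795 and r of 0.774 without the 2 farthest libraries (WT ZT16 replicates 4 and 3). The exceptions were Gins2 (r = 0.224, adjusted p = 0.389) and Ccne2 (r = 0.351, adjusted p = 0.123). By Spearman's rho 41 genes passed with Cd3e and 40 with Rag1, where 11.3% and 9.38% of all genes did. Without the 2 farthest libraries of each gene 39 and 33 passed (8.63% and 6.04% of all genes). Within WT, over 21 libraries, 45 and 42 passed (medians 0.811 and 0.763, 10.6% and 7.43% of all genes). Within KO, over 18 libraries, 21 and 14 passed (medians 0.62 and 0.64, 3.50% and 2.10% of all genes). Whether the correlations differ between genotypes was not tested. After centring on the 12 group means 45 passed with each (13.9% and 12.5% of all genes).

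**Figure D5:**
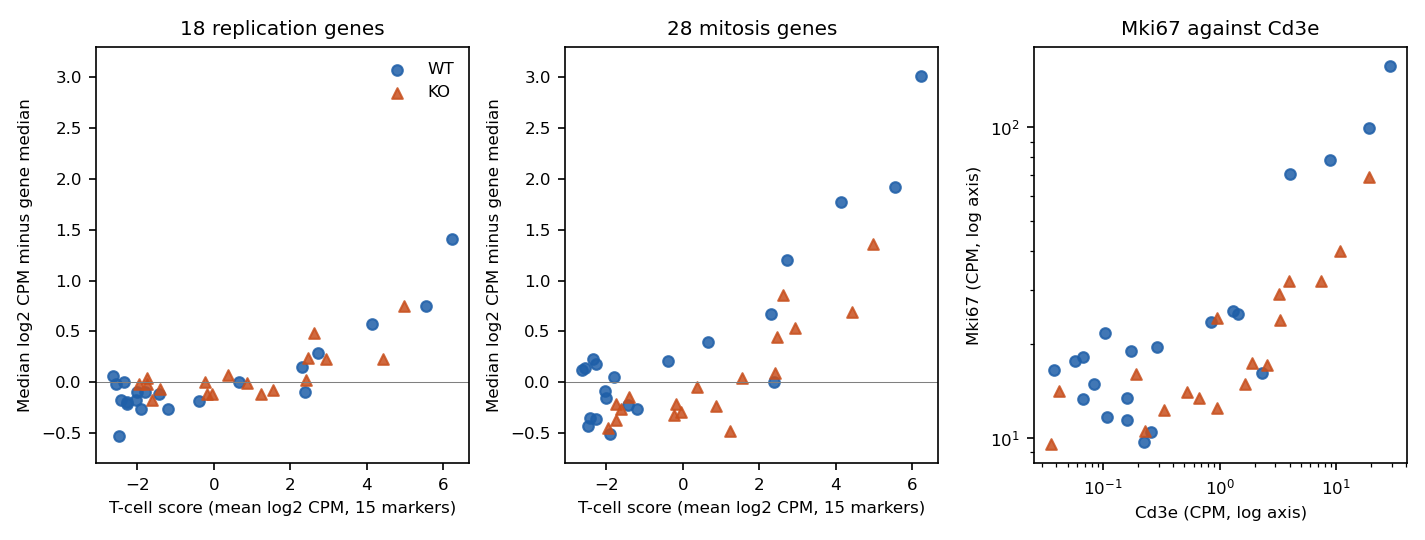
Median over 18 replication genes (left) and 28 mitosis genes (middle) of log2 CPM minus each gene's own median, against the T-cell score of the library, and Mki67 against Cd3e in CPM on log axes (right), with 1 point for each of 39 libraries (blue circles WT, orange triangles KO). Mitosis genes reach 3.01 and replication genes 1.41 above their own medians in WT ZT16 replicate 4, the library with the highest score of 6.24.

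Libraries with like scores differed in their mitosis genes. WT ZT8 replicate 1 (score 2.74) had 28 of 28 mitosis genes above their own medians over all libraries, by a median of 1.2 on the log2 scale. KO ZT12 replicate 1 (score 2.41) had 17, by a median of 0.094, and WT ZT0 replicate 3 (score 2.4) had 13, with a median of -0.0025. KO ZT0 replicate 3 (score 4.44) had a median of 0.687, and WT ZT20 replicate 2 (score 4.14) of 1.77. Counts of replication genes above their medians in these libraries were 15, 12, 5, 15 and 17 of 18.

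Mitosis genes also moved together more closely than replication genes, as a description over 39 libraries. The median Spearman rho was 0.702 over 378 pairs of mitosis genes, 0.503 over 153 pairs of replication genes and 0.548 over 504 mixed pairs, and in the 27 libraries of lower T-cell score these medians were 0.409, 0.152 and 0.124. The 5 genes outside the 46 that were most like Mki67 over 39 libraries, by Spearman's rho of log2 CPM, were Aspm (0.898), Kif2c (0.878), Kif14 (0.869), Kif4 (0.86) and Ncapd2 (0.853). Aspm acts at spindle poles, the 3 Kif genes encode kinesin motors of mitosis and Ncapd2 is a condensin subunit. The 5 most like Pcna were Fen1 (0.764), the flap nuclease of lagging-strand synthesis, Hnrnpf (0.741), Pimreg (0.739), Nup107 (0.724) and Ppp1cc (0.7). Mki67 and Pcna had a rho of 0.506 with each other.

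A further 54 replication and mitosis genes were listed for comparison, also with earlier results of these data known. By genotype, 0 of 24 replication genes and 1 of 30 mitosis genes passed, where 7.69% of all genes did, and 8 of the 54 had an unadjusted p under 0.05, where 21.1% did. That gene was Pttg1, which encodes securin, the inhibitor of separase, at -0.90 ± 0.223 (log2 fold change ± SE, edgeR adjusted p = 0.0088). Its slope on the T-cell score was -0.053 (adjusted p = 0.489). The next by smallest p were the polymerase subunit Pold1 at -0.16 (adjusted p = 0.0938), the kinetochore protein Spc24 at -0.31 (adjusted p = 0.122) and Kif2c at -0.66 (adjusted p = 0.124). On the T-cell score, 17 of 24 replication and 28 of 30 mitosis genes passed above 0, where 12.4% of all genes did, with median slopes of 0.056 and 0.20, and Pola1, Gins3 and Gins4 were among those that did not pass. The lowest p there belonged to the spindle protein Dlgap5 (adjusted p = 6.18e-12).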

How the data were processed

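RNA from 39 parathyroid pools was sequenced as total RNA. The authors deposited raw read counts per gene ID. STAR 2.7.8a, featureCounts 2.0.1, DESeq2 1.30.1 and the mm10 build are named per the submitters' processing notes; no source used here gives the annotation or strand setting. Of the deposited counts from 1 to 10, 89.6% were even, so one fragment may add more than one count. Of 27179 gene IDs, 25275 (93.0%, with 98.0% of counts) matched the RefSeq table. Samples were grouped by title. The 39 libraries held 38111766 to 68938704 counts, and 48 pairs of libraries within groups differed by more than sampling noise (chi-square per gene 36.1 to 372).

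Counts were normalised by TMM (factors 0.839 to 1.1), filtered by filterByExpr and tested by edgeR 4.0.16 quasi-likelihood fits over all genes passing the filter (18661; 18131 in WT alone and 17969 in KO alone), with Benjamini-Hochberg adjustment over all of them and a threshold of 0.05. CPM are counts scaled to TMM-adjusted library sizes, and log2 values used a prior count of 2. DESeq2 1.42.0 was an alternative, as were other scalings, filters and covariates and leaving out libraries. Scripts were tested on simulated data. Correlations used Python 3.11.15 and scipy 1.17.1, figures matplotlib 3.10.9.

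Members and lists were chosen with earlier results of these data known. Named with values were Mki67, Top2a, Pcna and Mcm2, up to 10 genes of smallest p past the threshold in each comparison, up to 4 of largest change where none passed, the 4 steepest and 4 flattest slopes in each class, the 3 highest and 3 lowest levels per length, and up to 4 further genes of smallest p. Others named, such as Cdk1 and Ect2 in the rhythm test and Foxm1 in the correlations, were chosen after their values were seen.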

Additional observations from a re-analysis of the deposited data

Results flagged for a closer look

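Of 28 checks, each of 1 gene or of the T-cell score in 1 group of 4 or 5 libraries, 5 found a library with a gap large for the group's range. For normally distributed values about 1 in 20 such checks would. The checks share libraries and are not independent, so that share is only a rough guide. The 5 fell in WT ZT20 replicate 2 and KO ZT20 replicate 2. In WT at ZT20, Mki67 was 78.5 CPM in replicate 2 and 16.6 to 25.6 in the other 3 libraries. In the same library Cd3e was 8.88 CPM, where the others held 0.038 to 1.3. In KO at ZT20, Top2a was 49.8 CPM in replicate 2 and 12.6 to 14.9 in the other 3. In that library Cd3e was 19.3 CPM, where the others held 0.665 to 2.53, and Rag1 was 267 CPM, where the others held 2.6 to 21.1. Both libraries are among the 12 of highest T-cell score, and what part T cells have in their proliferation genes was not tested.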

How the results depend on the processing

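The count of genes called by genotype moved from 0 to 26 with the T-cell score as a covariate, 5 with its square added and 3 without the 12 libraries of highest score, and at ZT20 from 0 to 1 with the score. The count called on the score moved from 45 to 0 without those 12. In KO alone, 21 genes passed with Cd3e and 14 with Rag1. The genotype estimate for Pcna turned above 0 without the 3 libraries of unclear time (9.71e-04), without the 12 (0.0331) and with the squared score (0.0394), and ranged from -0.046 to 0.0299 when single libraries were left out. Without the 12, 17 of 46 slopes were below 0, and of the genes named singly they were Pcna (-0.0696), Cdt1 (-0.029), Tyms (-0.043), Rrm1 (-0.017), Gins2 (-0.041) and Ect2 (-0.0063). The cause was not tested, and that fit also has fewer libraries and a narrower range of scores. Leaving out single libraries gave 0 genes for genotype, each time and each rhythm, 43 to 45 for the score, 42 to 45 with Cd3e and 42 to 44 with Rag1, and a score difference of 0.761 to 1.33.

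Replicate numbers did not pair the libraries (8 of 17 same-numbered pairs correlated above 0.1, range -0.293 to 0.51). With a replicate block, 0 genes were called by genotype, at each time and by rhythm, 45 on the score, and the score difference was 1.01. At ZT16 the count at an unadjusted p under 0.05 was 9 with the block, against 23, and the share of all genes with the block is not given. No KO library of ZT12 remained without the 12, so that time gave no value there. Depth did not limit detection, since the lowest count of the 46 genes in any library was 16.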
